A study of Homo sapiens with 59 samples.

Results

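Cultures of the leukaemic T cell line Jurkat were restricted for tryptophan or for leucine, and the response of each mRNA to the first restriction was compared with its response to the second. The comparison used 19 of the 59 libraries of the series. These were 5 libraries from cells given 25% tryptophan, 5 from the tryptophan control, 5 from cells given 25% leucine and 4 from the BCAA control, a group labelled for the branched-chain amino acids that leucine shares with isoleucine and valine. All were collected at day 3, and the labels give no genotype or other treatment. The sources used here do not give what the percentage refers to or what the control media held. The response to tryptophan is the 25% tryptophan group minus the tryptophan control, and the response to leucine is the 25% leucine group minus the BCAA control, both in log2(normalised count + 1). On that scale the change of a weakly expressed gene is understated. Their difference, tryptophan minus leucine, was tested as an interaction over the 4 groups for genes averaging 10 or more normalised counts in both deposited tables, which 15980 of 25851 genes passed.

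Tryptophan and leucine are essential amino acids that cells must take up. A shortage of either leaves transfer RNA uncharged, which can activate the kinase GCN2, and the factor ATF4 is then translated and switches on genes for amino acid transport, tRNA charging and stress relief. Leucine is in addition read by the sensor Sestrin2 upstream of the growth kinase mTORC1, whose activity favours ribosome production and cell division. Tryptophan is among the rarest residues in protein.

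The normalised counts of a library summed to between 15.3 and 19.0 M. All 12 T cell markers were present in the 4 groups, among them CD3E, and no pair of libraries was identical. BCAA control 1 stood apart from the rest of its group. Its median Spearman correlation with the other BCAA controls was 0.9675, against at least 0.98 for every other library within its own group, and its ribosomal protein mRNA stood at 6.17 on the log2 scale above the median gene, against 5.12 to 5.21 in BCAA controls 3, 4 and 5. Results that turn on the BCAA control are therefore also given without that library. The median gene had an SD over libraries of 0.315 log2 units in the BCAA control and of 0.183 to 0.208 in the other 3 groups. The labels do not tell whether replicate libraries came from separate cultures. The p-values therefore speak only to the spread among the 19 libraries, and that spread may be technical. In bulk RNA a smaller number of cells in some state and less mRNA per cell cannot be told apart.

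The 2 restrictions gave different responses in 6423 of 15980 genes (40.2%) at an adjusted p below 0.05 in limma, 2844 higher (17.8%) and 3579 lower (22.4%) under tryptophan than under leucine. Of the called genes, 44.3% were higher with the deposited scaling and 62.8% after scaling to equal totals, so the balance of the 2 directions is relative to the scaling. The response to tryptophan was called for 7332 genes (45.9%), 20.5% higher and 25.4% lower, and the response to leucine for 3046 (19.1%), 9.74% higher and 9.32% lower. Both responses and their difference were called, with opposite signs, for 1193 genes (7.47%), referred to here as opposed. Of these 438 (2.74%) were higher under tryptophan and lower under leucine restriction, and 755 (4.72%) were lower under tryptophan and higher under leucine restriction. The share of the first class among opposed genes was 36.7% as deposited and 50.8% with equal totals. In comparison, 584 genes (3.65%) moved the same way under both restrictions, 191 higher (1.2%) and 393 lower (2.46%). Another 5555 genes (34.8%) were called for tryptophan only, and 1269 (7.94%) for leucine only.

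The number of opposed genes depended on how the spread was estimated. One estimate over 4 groups gave 1193, and each table fitted on its own, which lets the wider BCAA controls carry their own spread, gave 599, of which 563 were among the 1193. Without BCAA control 1 the count was 1301, with 949 shared. For 693 of the 1193 opposed genes (4.34% of all tested genes) no restricted library overlapped a control library in either table. Among all 15980 tested genes the same held for 1127.

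**Figure D1:**
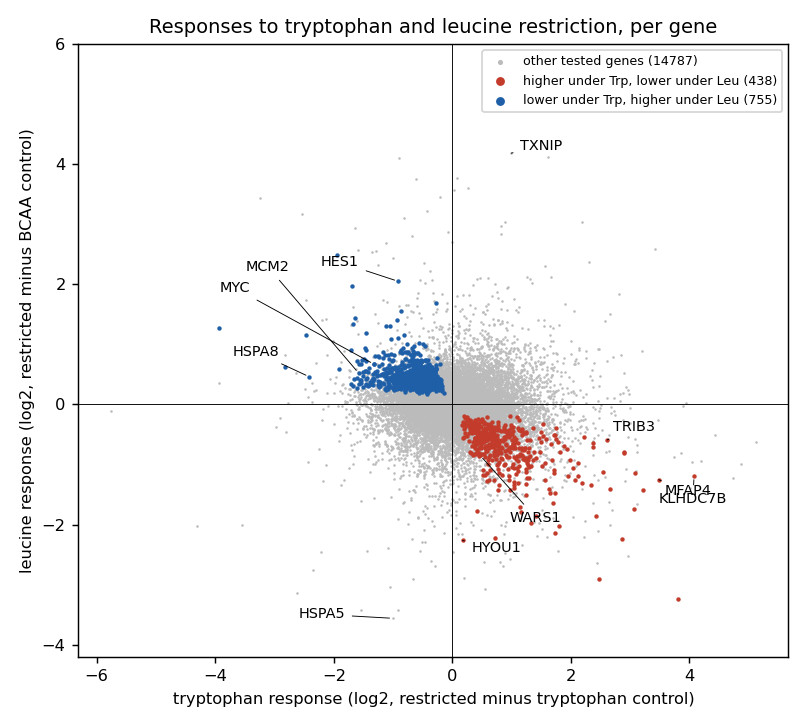
Each point is 1 of 15980 tested genes, placed by its log2 response to tryptophan restriction (horizontal) and to leucine restriction (vertical). The 438 red genes at lower right and the 755 blue genes at upper left were called in both responses with opposite signs; most lie closer to 0 on the leucine axis than on the tryptophan axis, and HSPA5 and TXNIP are shown as examples that moved the same way under both.

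Among genes higher under tryptophan and lower under leucine restriction, the 12 with the largest difference, a mean of at least 100 in some group and no overlap of libraries in either table included genes of the extracellular matrix, the lymphocyte surface and vesicle traffic. MFAP4, a microfibril-associated matrix glycoprotein gene (chromosome 17, 19383445 to 19387190, GRCh38.p14), stood at 66.1, 83.9, 72.6, 75.5 and 87.0 normalised counts in tryptophan controls 1 to 5 and at 954, 785, 840.1, 892 and 873 in the 25% tryptophan libraries. It stood at 1296, 1015, 748 and 1125 in BCAA controls 1, 3, 4 and 5 and at 425, 522, 343, 449 and 428 in the 25% leucine libraries. The tryptophan controls were the lowest of the 4 groups, and neither restricted group overlapped its control. Its response was 3.48 (SE 0.13, adjusted p = 6.67e-14) to tryptophan and -1.25 (SE 0.14, adjusted p = 2.68e-06) to leucine, a difference of 4.74 (SE 0.19, adjusted p = 1.64e-13). Fibroblasts also make matrix genes, and the sum of 6 fibroblast markers ran from 275 to 1246 normalised counts in the BCAA controls and from 153 to 370.1 in the other 3 groups. COL3A1 averaged 129 in the BCAA controls and at most 5.42 elsewhere, COL1A2 34.8 and at most 1.18, and PDGFRA 4.10 and 0. These are group means, and the sum of 1246 belongs to a single BCAA control. They therefore need not hold for every BCAA control. COL1A1 was present in all 4 groups, at 385 in the BCAA controls and 183 to 300 elsewhere. DCN was highest in the tryptophan controls, at 11.6 against 5.58 in the BCAA controls, and LUM was at 0 in all 4 groups. The part of these markers in the results was not tested.

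SPNS3, a member of the spinster family of membrane transporters (chromosome 17, 4433940 to 4488204), was likewise lowest in the tryptophan controls. It stood at 372, 302, 271, 319.8 and 227 in the tryptophan controls and 2515, 1892, 2062, 2272 and 2327 under 25% tryptophan, and at 2088, 1817, 1296 and 1506 in the BCAA controls and 811, 1242, 849.8, 929 and 909 under 25% leucine. Every 25% tryptophan library lay above the tryptophan controls and every 25% leucine library below the BCAA controls, with responses of 2.90 (SE 0.14, adjusted p = 1.26e-12) and -0.82 (SE 0.15, adjusted p = 0.000794). KLHDC7B had the largest difference of the 12, 5.27 (SE 0.38, adjusted p = 9.24e-10), but from tryptophan controls at 9.27 ± 4.23 normalised counts (SD, n = 5), and its leucine response had adjusted p = 0.0526 with 1 weight per group. Among immune surface molecules, JAML, an adhesion molecule of leukocytes, SIRPG, a T cell receptor for CD47, and TREML2 of the TREM family differed by 4.07, 3.32 and 3.02 log2 units. SIRPG rose from 57.1 ± 7.30 to 242 ± 20.3 under tryptophan restriction (SD, n = 5 and 5) and fell from 391 ± 65.0 to 164 ± 31.6 under leucine restriction (SD, n = 4 and 5).

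CTSG, a serine protease of granules (chromosome 14, 24573518 to 24576250), rose from 359.9 ± 44.9 to 1392 ± 68.6 and fell from 2119 ± 839 to 886 ± 108 (SD, n = 5, 5, 4 and 5). BCAA control 1 alone stood at 3355 and the other 3 at 1619.5, 1569 and 1933. Of 9 myeloid markers CSF1R, LYZ, FCGR3A, S100A8 and MPO had group means of 0 in all 4 groups. S100A9 and ITGAM averaged 3.74 and 2.11 under 25% tryptophan and 0.56 and 1.25 in the tryptophan controls. Both were at 0 in the BCAA controls and under 25% leucine. The sum of the 9 markers ran from 50.0 to 117 in the BCAA controls, through CD68 and CD14, and from 1.17 to 28.2 in the other 3 groups. PLEK, a substrate of protein kinase C, and SYTL1, a synaptotagmin-like regulator of vesicle traffic, had tryptophan responses of 2.12 and 2.38 and leucine responses of -0.97 and -0.71. WIPI1, which binds the forming autophagosome, had the larger response to leucine, with 364 ± 42.2 in the BCAA controls against 112 ± 21.2 under 25% leucine, and 56.6 ± 5.52 against 126 ± 16.5 for tryptophan (SD, n = 4, 5, 5 and 5). Its leucine response was -1.71 (SE 0.15, adjusted p = 1.50e-07). H2BC21, a histone gene with close copies, and L3MBTL2-AS1, an antisense transcript, are uncertain, since the quantification could divide reads among copies and the sources used here do not give its strand setting; they differed by 2.84 and 4.22. The leucine response of L3MBTL2-AS1 was not called with 1 weight per group either (adjusted p = 0.0699). All 12 of these genes stayed opposed when each table was fitted on its own.

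Among genes lower under tryptophan and higher under leucine restriction, the corresponding 12 included chaperones, genes of DNA replication and genes of growth-factor and Notch signalling. HES1, a repressor induced by Notch in T cell leukaemia (chromosome 3, 194136148 to 194138732), stood at 111, 104, 129, 92.1 and 119 in the tryptophan controls and at 38.2, 89.0, 49.4, 53.8 and 72.1 under 25% tryptophan. It stood at 67.6, 27.9, 24.5 and 38.5 in the BCAA controls and at 136, 184, 134, 151 and 176 under 25% leucine. The leucine-restricted libraries were the highest of the 4 groups, and BCAA controls 3, 4 and 5 were among the lowest values. The response was -0.92 (SE 0.24, adjusted p = 0.00391) to tryptophan and 2.05 (SE 0.26, adjusted p = 1.46e-05) to leucine, a difference of -2.97 (SE 0.35, adjusted p = 1.01e-06).

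CCND1, which drives entry into S phase through CDK4 and CDK6, fell from 149 ± 21.8 to 53.1 ± 3.00 under tryptophan restriction and rose from 38.7 ± 14.1 to 87.8 ± 23.7 under leucine restriction (SD, n = 5, 5, 4 and 5). SPRY4, an inhibitor of the RAS pathway that is itself induced by it, had responses of -1.71 (SE 0.16, adjusted p = 1.52e-08) and 0.91 (SE 0.17, adjusted p = 0.000778). DTL, a substrate receptor of the ubiquitin ligase that removes CDT1 in S phase, stood at 3038 ± 272 and 1013 ± 75.1 in the tryptophan table and at 788 ± 102 and 1250.4 ± 89.4 in the leucine table, control first. AKAP12, a scaffold for protein kinase A, FJX1, a secreted Golgi protein, OXTR, the oxytocin receptor, and the zinc finger gene ZNF704 differed by -2.17, -2.27, -2.33 and -2.36. The other 4 genes, HSPA8, HSP90AA1, CHORDC1 and GINS1, are described with their groups below. These 12 genes too stayed opposed with each table fitted on its own.

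The gene lists were chosen with earlier results of these data known and support no theme by themselves. Their members are given as counts beside the 7.47% of all tested genes that were opposed. Counts of members that rose or fell, in every list below, stand beside other shares of all tested genes. These were 20.5% higher and 25.4% lower for tryptophan, and 9.74% higher and 9.32% lower for leucine. The list of ATF4 stress response genes had the largest share, 10 of 23 tested members (43.5%), all 10 higher under tryptophan and lower under leucine restriction. Of the 23, 17 rose and 2 fell under tryptophan restriction, and 1 rose and 12 fell under leucine restriction, with medians of 0.77 and -0.37 against 0.02 and 0.00 over all tested genes. With each table fitted on its own 7 of the 23 were opposed, 6 of the 10 and DDIT3 in addition. Without BCAA control 1 there were 9, of which 8 were among the 10, and CEBPB and JDP2 were not called for leucine (adjusted p = 0.0951 and 0.0596).

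TRIB3, a pseudokinase that curbs the ATF4 response (chromosome 20, 380760 to 397559), stood at 1726, 1782, 1834, 1724 and 1774 normalised counts in the tryptophan controls and at 10871, 10782, 11102, 11212 and 10164 under 25% tryptophan. In the BCAA controls it stood at 18780, 14125, 12348 and 14107 and under 25% leucine at 9487, 13053, 9656, 8361 and 8768. The tryptophan controls held far less TRIB3 than the other 14 libraries, and the leucine groups overlapped, since 25% leucine 2 lay above BCAA control 4. TRIB3 rose under tryptophan restriction, 2.61 (SE 0.11, adjusted p = 2.01e-13), and fell under leucine restriction, -0.59 (SE 0.11, adjusted p = 0.00102).

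SESN2, which encodes the leucine sensor Sestrin2, stood at 831 ± 65.9 and 2389.8 ± 203 in the tryptophan table (SD, n = 5 and 5) and at 1925 ± 162 and 1534 ± 159 in the leucine table (SD, n = 4 and 5), control first. Its tryptophan response was 1.52 (SE 0.09, adjusted p = 1.13e-11). Its leucine response of -0.33 was called in the joint fit (adjusted p = 0.0143) and not with the leucine table on its own (adjusted p = 0.0709), and BCAA control 4 lay below 25% leucine 2. SLC7A11, which imports cystine for glutathione, had 1.50 (SE 0.14, adjusted p = 2.35e-08) for tryptophan and -0.62 for leucine (adjusted p = 0.0066, or 0.0643 with the table on its own). BCAA control 1 held 283 normalised counts of SLC7A11, within the 25% leucine range of 243 to 345, and the other BCAA controls held 461, 574 and 479. Without BCAA control 1 its leucine response was called (adjusted p = 4.73e-05). PPP1R15A, which restores translation by dephosphorylating eIF2, NIBAN1, ADM2 and HERPUD1, a factor of endoplasmic reticulum degradation, stayed opposed both with the table on its own and without BCAA control 1. HERPUD1 rose from 2097 ± 262 to 3566 ± 267 (0.77, adjusted p = 3.43e-07) and fell from 6444 ± 849 to 3041 ± 113 (-1.07, adjusted p = 9.64e-08), as mean ± SD over 5, 5, 4 and 5 libraries.

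Other ATF4 genes were not opposed in the joint fit. The glutathione-degrading enzyme CHAC1 and the hormone gene STC2 rose under tryptophan restriction (1.38 and 1.47), and their leucine responses were 0.00 and 0.06 (adjusted p = 0.995 and 0.627). DDIT3, the stress factor CHOP, and DDIT4, an inhibitor of mTORC1, fell under leucine restriction (-1.53 and -0.69), and their tryptophan responses were 0.29 and 0.11 (adjusted p = 0.137 and 0.465). With each table on its own the tryptophan response of DDIT3 was called (adjusted p = 0.00468), and the gene was then opposed. BCAA control 1 held 4700 normalised counts of DDIT3, against 2026 to 2152 in the other 3 BCAA controls. The mRNA of ATF4 itself fell under tryptophan restriction (-0.52, adjusted p = 0.000316), with a response of -0.27 for leucine (adjusted p = 0.0887). ASNS, asparagine synthetase, rose under tryptophan (1.23) with -0.39 for leucine (adjusted p = 0.0682), and the 2 responses differed by 1.61 (SE 0.20, adjusted p = 1.62e-06).

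Genes that charge or carry amino acids included both directions. Of 20 cytosolic tRNA synthetases, 3 were opposed. WARS1, the enzyme that charges tryptophan onto its tRNA (chromosome 14, 100333790 to 100376327), stood at 2089, 1958, 2114, 1925 and 1797 in the tryptophan controls and at 2996, 2311, 2704, 2706 and 3001 under 25% tryptophan, and at 4009, 3379, 3412 and 3667 in the BCAA controls and 2162, 2016, 1863, 1994 and 1990.1 under 25% leucine. The groups did not overlap in either table, and the ranges of the 25% leucine and tryptophan control libraries overlapped. WARS1 rose under tryptophan restriction, 0.47 (SE 0.08, adjusted p = 3.88e-05), and fell under leucine restriction, -0.85 (SE 0.08, adjusted p = 3.92e-07). AARS1, which charges alanine, moved the same ways (0.42 and -0.66). FARSB, a subunit of the phenylalanyl enzyme, moved the opposite ways (-1.22 and 0.31), but its leucine response was not called with the table on its own (adjusted p = 0.0965). LARS1, which charges leucine, fell under tryptophan restriction (-0.44, adjusted p = 0.025), with a leucine response of 0.33 (adjusted p = 0.162).

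Of 17 amino acid transporters 4 were opposed (23.5%), all higher under tryptophan and lower under leucine restriction, and all 4 stayed so with each table on its own and without BCAA control 1. SLC6A9, a glycine carrier, stood at 128, 176, 154, 136 and 189 in the tryptophan controls and 692, 511, 540, 646 and 610.4 under 25% tryptophan, and at 535, 592, 492 and 584 in the BCAA controls and 351, 389, 267, 292 and 367 under 25% leucine. The ranges of the 25% tryptophan libraries and the BCAA controls overlapped, above the 25% leucine libraries, with the tryptophan controls lowest. SLC43A1, which carries branched-chain and aromatic amino acids, had responses of 1.41 and -0.89. SLC7A8, a large neutral amino acid exchanger, had 0.75 and -0.84, and SLC38A9, the lysosomal arginine sensor of mTORC1, 0.43 and -0.42. The main carrier of leucine and tryptophan, the SLC7A5 and SLC3A2 pair, was not opposed. SLC7A5 rose by 0.26 under tryptophan restriction (adjusted p = 0.0435) and had 0.11 under leucine restriction (adjusted p = 0.502). SLC3A2 had 0.04 (adjusted p = 0.764) and -0.34 (adjusted p = 0.0381), and the latter was not called without BCAA control 1 (adjusted p = 0.129).

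DNA replication genes gave the highest number of opposed members in the other direction among the 43 lists. All 35 tested members of the replication list fell under tryptophan restriction, while 13 rose and 3 fell under leucine restriction. The 13 that rose were all opposed (37.1%), and the list medians were -1.25 for tryptophan and 0.17 for leucine. With each table on its own 6 stayed opposed, and without BCAA control 1 there were 14. MCM2, a subunit of the replicative helicase (chromosome 3, 127598411 to 127622436), stood at 10132, 11450, 11187, 10304 and 11153 in the tryptophan controls and at 3617, 3321, 3689, 3863 and 3615 under 25% tryptophan. It stood at 3793, 2769, 3015 and 3106 in the BCAA controls and at 4086, 5130, 4369.8, 4564 and 4543 under 25% leucine. The tryptophan controls held the highest values, and of the 3 other groups the leucine-restricted libraries lay above all their controls. MCM2 fell under tryptophan restriction, -1.58 (SE 0.08, adjusted p = 2.27e-12), and rose under leucine restriction, 0.52 (SE 0.08, adjusted p = 0.000245).

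The helicase subunits MCM3, MCM4, MCM6 and MCM7 were opposed as well, with tryptophan responses of -1.06, -1.40, -1.24 and -1.43 and leucine responses of 0.44, 0.61, 0.29 and 0.54. GINS1, GINS2 and GINS3, partners of that helicase, POLA1 and POLD3 of the replicative polymerases, the sliding clamp PCNA, its loader subunit RFC2 and the licensing inhibitor GMNN completed the 13. GINS1 fell from 1174 ± 82.7 to 431 ± 52.2 and rose from 291 ± 24.8 to 553 ± 116 (SD, n = 5, 5, 4 and 5). For MCM6, PCNA, POLA1, RFC2, GMNN, GINS2 and GINS3 the leucine response was not called with the table on its own (adjusted p = 0.0531 to 0.165). MCM10, an initiation factor, fell most under tryptophan restriction in this list, -2.11 (SE 0.07, adjusted p = 1.90e-14), and had 0.19 under leucine restriction (adjusted p = 0.0755). The proliferation marker MKI67 fell under tryptophan restriction (-0.57), with 0.25 for leucine (adjusted p = 0.168).

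Promoters of 4 of these replication genes are shown because their mRNAs moved together and because 6 of the 11 opposed members with an entry in the RefSeq promoter table (GRCh38.p14) hold an E2F motif, TTTCCCGC or TTTGGCGC on either strand of the 250 bases before the start. The motif was chosen after the values were seen. It is found in 1.96% of 27303 promoters of that length and in 3.11% of the 11043 tested genes with an entry. Replication genes that were not opposed were not counted on their own, so the share cannot be tied to opposition. E2F factors drive S-phase genes, but a match is only a description of the letters. Capitals mark the motif, and each sequence is written 5′ to 3′ on the strand of the gene.
MCM3 (chr6:52284743-52284992, minus strand): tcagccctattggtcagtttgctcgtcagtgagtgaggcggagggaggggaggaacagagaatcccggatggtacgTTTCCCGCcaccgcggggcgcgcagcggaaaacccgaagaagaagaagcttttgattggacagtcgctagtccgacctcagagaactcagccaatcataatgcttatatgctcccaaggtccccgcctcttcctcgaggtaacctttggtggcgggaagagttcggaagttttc
MCM6 (chr2:135876444-135876693, minus strand): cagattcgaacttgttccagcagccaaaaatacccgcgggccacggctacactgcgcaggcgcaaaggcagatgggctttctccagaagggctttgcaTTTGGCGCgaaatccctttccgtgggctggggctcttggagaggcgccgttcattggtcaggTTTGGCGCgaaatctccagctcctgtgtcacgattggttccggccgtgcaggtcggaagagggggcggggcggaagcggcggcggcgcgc
MCM7 (chr7:100101398-100101647, minus strand): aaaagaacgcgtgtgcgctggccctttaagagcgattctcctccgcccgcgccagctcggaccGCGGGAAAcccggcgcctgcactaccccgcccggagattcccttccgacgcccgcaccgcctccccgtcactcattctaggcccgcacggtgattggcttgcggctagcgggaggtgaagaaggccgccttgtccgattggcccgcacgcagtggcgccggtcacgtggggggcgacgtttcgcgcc
POLA1 (chrX:24693668-24693917, plus strand): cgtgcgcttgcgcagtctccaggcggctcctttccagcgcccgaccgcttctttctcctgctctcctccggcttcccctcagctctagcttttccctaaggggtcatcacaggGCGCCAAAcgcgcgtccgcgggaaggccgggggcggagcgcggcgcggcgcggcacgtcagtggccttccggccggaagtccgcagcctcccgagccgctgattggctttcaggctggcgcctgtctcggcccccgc
MCM6 holds 2 matches, and the others 1 each. GINS2 and PCNA also hold 1, and MCM2, GINS1, GINS3, GMNN and RFC2 hold none. Among all opposed genes lower under tryptophan restriction, 5.66% of 618 promoters hold the motif, and among those higher 2.10% of 334.

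Ribosome biogenesis genes went the same ways. All 30 tested members fell under tryptophan restriction, and under leucine restriction 9 rose and 1 fell, with medians of -1.09 and 0.22. The 9 were opposed (30.0%), and 5 of them stayed so with each table on its own. Without BCAA control 1 the list had 16 opposed members, these 9 included. NOLC1, a nucleolar phosphoprotein that escorts small nucleolar ribonucleoproteins (chromosome 10, 102152389 to 102163870), stood at 14488, 14701, 13493, 14156 and 13873 in the tryptophan controls and 5309.6, 5309, 5795, 6088 and 6083 under 25% tryptophan. It stood at 3650.1, 3336, 4189.7 and 4068 in the BCAA controls and 6503, 7642, 6197, 6344 and 6768 under 25% leucine, so that neither pair overlapped and the BCAA controls were the lowest of the 4 groups. Its responses were -1.31 (SE 0.07, adjusted p = 1.32e-11) and 0.81 (SE 0.08, adjusted p = 4.02e-07). UTP20 and NOP56, needed to process ribosomal RNA, had tryptophan responses of -1.32 and -1.29 and leucine responses of 0.67 and 0.53. WDR43 fell under tryptophan restriction (-1.66) with 0.21 for leucine (adjusted p = 0.0729).

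MYC, the growth factor-induced activator of ribosome and cell cycle genes, fell under tryptophan and rose under leucine restriction. It stood at 7528, 10029, 9299, 8410.2 and 10174 in the tryptophan controls and 3783, 2903, 3473, 4460 and 3575 under 25% tryptophan, and at 4035, 3302, 2920.2 and 3452 in the BCAA controls and 5027, 5801, 4766, 5408 and 6239 under 25% leucine. Neither pair of groups overlapped, with responses of -1.33 (SE 0.11, adjusted p = 4.58e-09) and 0.67 (SE 0.12, adjusted p = 0.000575). MXD4, a partner of MAX that represses MYC targets, moved the other way, from 545 ± 63.1 to 1361 ± 193 under tryptophan restriction (1.32) and from 1705 ± 279 to 937 ± 152 under leucine restriction (-0.86), as mean ± SD over 5, 5, 4 and 5 libraries. MXD3 moved with MXD4 and MGA with MYC, so that 4 of 12 network members were opposed (33.3%). The leucine responses of MXD3 and MGA were not called with the table on its own (adjusted p = 0.0695 and 0.109), and with equal totals MGA was not opposed, at a tryptophan response of -0.22. MYCN rose under both restrictions, from 24.6 ± 3.47 to 133 ± 19.8 and from 114 ± 8.21 to 185 ± 28.0 (SD, n = 5, 5, 4 and 5), and its leucine response was not called with 1 weight per group (adjusted p = 0.0553).

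Cytosolic heat-shock chaperones, which fold new and damaged proteins, also fell under tryptophan restriction. Of 22 tested members 20 fell and 0 rose under tryptophan, and 6 rose and 1 fell under leucine restriction. The 6 were opposed (27.3%), and 5 of them stayed so with each table on its own. Without BCAA control 1 the list had 8 opposed members, and the medians were -1.07 and 0.16. HSPA8, the constitutive HSP70 (chromosome 11, 123057489 to 123062462), stood at 41274, 36135, 34143, 38270 and 33193 in the tryptophan controls and at 6925, 6854, 6673, 6685 and 7065 under 25% tryptophan. In the BCAA controls it stood at 12243, 7962, 8694 and 9750.3 and under 25% leucine at 12582, 13976, 12818, 13336 and 12966. Each tryptophan control lay above all libraries of the 3 other groups, by more than a factor of 2, and BCAA control 1 was the highest of its group. HSPA8 changed by -2.42 (SE 0.09, adjusted p = 6.67e-14) under tryptophan and by 0.46 (SE 0.10, adjusted p = 0.00209) under leucine restriction.

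HSP90AA1, the inducible cytosolic HSP90, stood at 87950, 75412, 67946, 77839 and 67441 in the tryptophan controls and 22089, 28527, 26403, 25739 and 26157 under 25% tryptophan, and at 38093, 27929, 35946 and 31575 in the BCAA controls and 40264, 51096, 54888, 64202 and 56967 under 25% leucine. Here the leucine-restricted libraries all lay above the tryptophan-restricted ones and above their own controls. The responses were -1.54 (SE 0.12, adjusted p = 7.52e-10) and 0.67 (SE 0.12, adjusted p = 0.000775). HSPA8 and HSP90AA1 have processed pseudogenes that can share reads, and their levels are uncertain to that extent. The co-chaperones CHORDC1, DNAJA1 and AHSA1 had tryptophan responses of -1.49, -1.23 and -0.90 and leucine responses of 0.75, 0.80 and 0.52, and DNAJB6 had -0.41 and 0.27. FKBP4, an HSP90 co-chaperone, fell under tryptophan restriction (-1.59), and its leucine response of 0.20 was called without BCAA control 1 (adjusted p = 0.00211) and not with it (adjusted p = 0.0916). HSPA6, which is made only under stress, was called in neither response. It stood at 14.6 ± 5.19 and 11.0 ± 8.58 in the tryptophan table and at 1519 ± 191 and 1223 ± 770 in the leucine table, control first.

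The promoters of HSPA8 and CHORDC1 are shown for the heat shock element, the motif bound by heat-shock factors, here searched on both strands as GAA, any 2 bases, TTC, any 2 bases and GAA, and chosen after the values were seen. It is found in 3 of the 6 opposed heat-shock genes, the third being DNAJB6, and in 0.440% of 27303 promoters. Of the 11043 tested genes with an entry 0.263% hold it. Heat-shock genes that were not opposed were not counted on their own. Among all opposed genes lower under tryptophan restriction it is found in 4 of 618 promoters (0.647%). Capitals mark the matches.
HSPA8 (chr11:123062137-123062386, minus strand): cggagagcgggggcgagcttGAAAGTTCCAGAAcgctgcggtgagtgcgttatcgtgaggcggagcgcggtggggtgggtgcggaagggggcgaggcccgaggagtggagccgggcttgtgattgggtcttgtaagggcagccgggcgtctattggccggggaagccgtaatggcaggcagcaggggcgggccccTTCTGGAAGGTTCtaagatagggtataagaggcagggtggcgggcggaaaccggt
CHORDC1 (chr11:90223050-90223299, minus strand): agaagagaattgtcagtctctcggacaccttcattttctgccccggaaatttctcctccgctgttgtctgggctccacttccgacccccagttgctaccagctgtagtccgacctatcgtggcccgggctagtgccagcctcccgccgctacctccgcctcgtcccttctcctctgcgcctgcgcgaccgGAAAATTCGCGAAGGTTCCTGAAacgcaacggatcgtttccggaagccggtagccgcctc
HSPA8 holds 2 separate matches, and the capitals of CHORDC1 span 3 overlapping ones. HSP90AA1, DNAJA1 and AHSA1 hold none in this window. For the opposed ATF4 genes the amino acid response element TGATGNAAN was found in 1 of 8 promoters with an entry, that of HERPUD1. It was found in 3.18% of all promoters and in 1.31% of those of tested genes. The endoplasmic reticulum stress element, of 19 letters, was found in none of the 6 opposed genes of endoplasmic reticulum degradation and in 0.0806% of all promoters.

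The chaperonin, which folds actin and tubulin, was lower under tryptophan restriction in all 8 subunits. CCT3, CCT5 and CCT7 were opposed in the joint fit (37.5%), with leucine responses of 0.33, 0.29 and 0.33. None of the 3 was opposed with each table on its own (leucine adjusted p = 0.0896 to 0.136), whereas 4 subunits were opposed without BCAA control 1. CCT3 and CCT5 had tryptophan responses of -1.38 and -1.11, and CCT6A had -0.93 with 0.05 under leucine restriction (adjusted p = 0.661).

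Feedback inhibitors of MAP kinase and growth-factor signalling followed the replication genes. Of 15 tested members 11 fell and 0 rose under tryptophan restriction, against 25.4% and 20.5% of all tested genes. Under leucine restriction 5 rose and 1 fell, against 9.74% and 9.32%. The 4 opposed members (26.7%) were DUSP8, DUSP4, SPRY4 and SPRED2. DUSP4 was not called for leucine with the table on its own (adjusted p = 0.139), nor SPRED2 without BCAA control 1 (adjusted p = 0.0596). DUSP8, a phosphatase of stress-activated MAP kinases, stood at 1004, 1201, 1208, 986 and 1192 in the tryptophan controls and 170.2, 143, 167, 174 and 129 under 25% tryptophan, and at 226, 237, 187 and 252 in the BCAA controls and 244, 419, 348, 363 and 392 under 25% leucine. The last 2 groups overlapped in 1 library, 25% leucine 1. The responses of DUSP8 were -2.83 (SE 0.13, adjusted p = 9.84e-13) and 0.63 (SE 0.14, adjusted p = 0.00389). DUSP10 fell under tryptophan restriction (-2.49) with 0.26 under leucine restriction (adjusted p = 0.147).

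JUN, a subunit of the AP-1 transcription factor, is named after its values were seen. It stood at 2709, 2221, 1924, 2380.5 and 1960 in the tryptophan controls and 114, 82.7, 226, 232 and 125 under 25% tryptophan. It stood at 117, 125, 38.4 and 169 in the BCAA controls and 209, 128, 298, 261 and 389.9 under 25% leucine, where the groups overlapped. Every tryptophan control lay above all other libraries, of which the highest held 389.9. JUN had responses of -3.94 (adjusted p = 6.67e-09) and 1.28 (adjusted p = 0.0175, or 0.0696 with the table on its own). EGR1, another immediate-early factor, moved the opposite ways. It stood at 966, 1211, 1232, 1136 and 1159.6 in the tryptophan controls and 1689, 1272, 1435, 2043 and 1545 under 25% tryptophan, and at 885, 1031, 768 and 949 in the BCAA controls and 584, 520, 469.8, 556 and 667 under 25% leucine. The 25% tryptophan libraries were the highest and the 25% leucine libraries the lowest of the 4 groups. Its responses were 0.47 (SE 0.12, adjusted p = 0.00249) and -0.70 (SE 0.13, adjusted p = 0.000643).

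Polyamine and methionine-cycle genes were opposed in 6 of 19 cases (31.6%), 3 with each table on its own. ODC1, the rate-limiting enzyme of polyamine synthesis, went from 10205 ± 635 to 5861 ± 418 under tryptophan restriction and from 4201 ± 399 to 6429 ± 418 under leucine restriction (SD, n = 5, 5, 4 and 5), with responses of -0.80 (SE 0.07, adjusted p = 1.28e-08) and 0.62 (SE 0.08, adjusted p = 1.32e-05). MAT2A, which makes S-adenosylmethionine, had -0.67 and 0.75. CBS of transsulfuration moved the other way, 0.30 (SE 0.08, adjusted p = 0.00344) and -0.79 (SE 0.08, adjusted p = 1.59e-06). These 3 kept their calls with each table on its own.

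**Figure D2:**
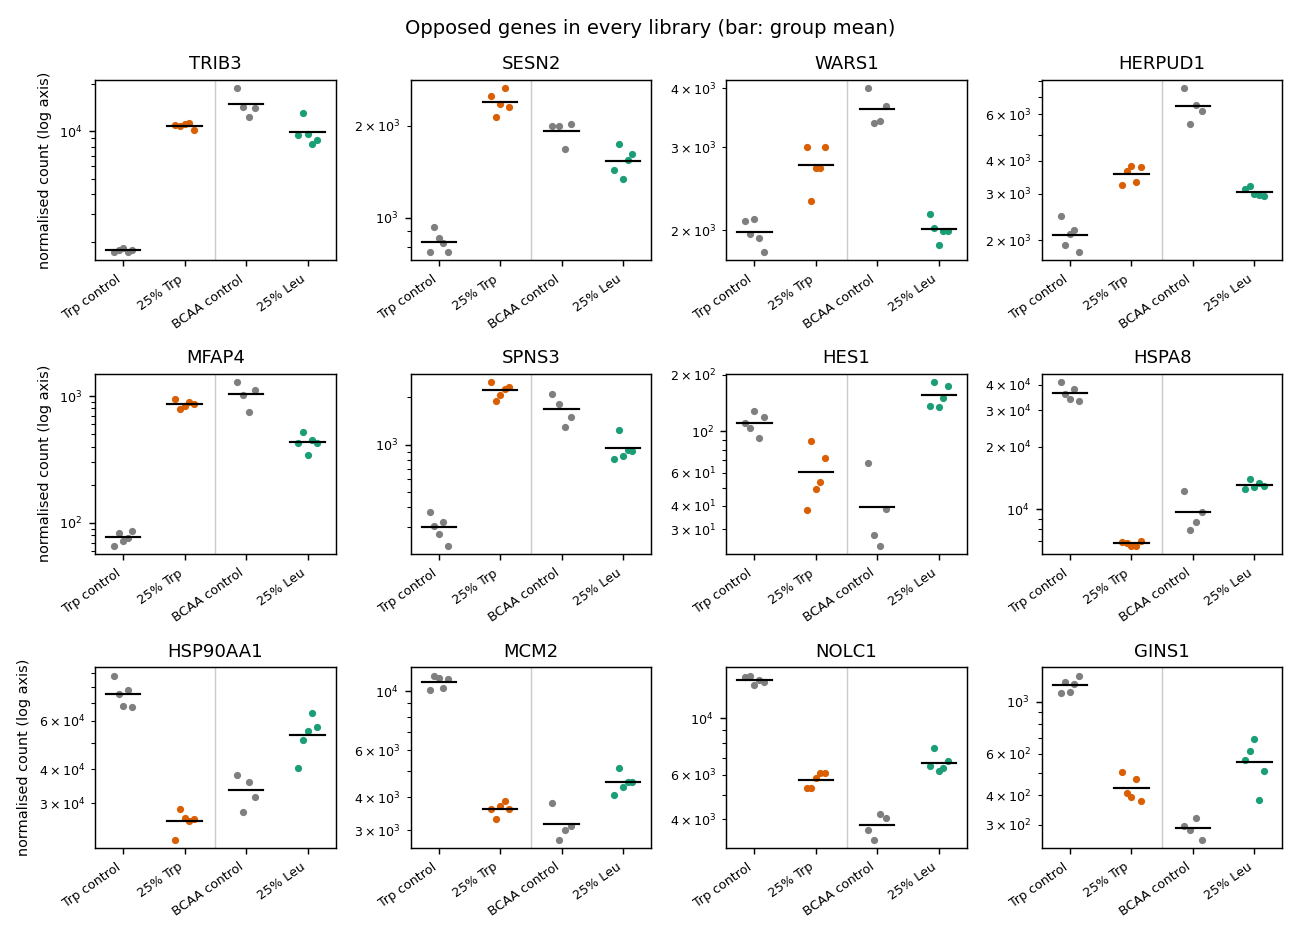
Normalised counts (log axes) of 12 opposed genes in all 19 libraries, grouped as tryptophan control, 25% tryptophan, BCAA control and 25% leucine, with a bar at each group mean. In TRIB3 the tryptophan controls lie between 1724 and 1834 and all other libraries at 8361 or above, in HSPA8 and MCM2 the tryptophan controls are the highest group, and in HES1 the 25% leucine libraries are.

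T-lineage transcription factors were opposed in 5 of 19 cases (26.3%), all lower under tryptophan and higher under leucine restriction. LEF1, a partner of beta-catenin, had responses of -0.84 and 0.53, and it stayed opposed with HES1 when each table was fitted on its own. GATA3, RUNX3 and TCF12 had -0.30, -0.59 and -0.19 for tryptophan and 0.32, 0.43 and 0.33 for leucine, without a call for leucine when its table stood alone (adjusted p = 0.0549 to 0.0807). With equal totals GATA3 and TCF12 were not opposed, at tryptophan responses of -0.06 and 0.06. In the T cell receptor list 3 of 29 members were opposed (10.3%), near the share of all genes, and 12 rose and 10 fell under tryptophan restriction. Of the 3, THEMIS, which sets the signalling threshold of thymocytes, and TRAC, the receptor's alpha constant region, had -0.70 and -0.64 for tryptophan and 0.39 and 0.50 for leucine. CD3E was called in neither response (0.06 and -0.09, adjusted p = 0.63 and 0.521).

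Of 16 members of the BCL2 family 4 were opposed. BMF, a killer protein held by the cytoskeleton, was higher under tryptophan and lower under leucine restriction (1.18 and -0.77). BCL2, which protects from apoptosis, BCL2L11 and PMAIP1 moved the other way (-0.47, -0.45 and -1.24, and 0.75, 0.42 and 0.38). With the table on its own BMF and BCL2 stayed opposed. With equal totals BCL2 and BCL2L11 did not, at tryptophan responses of -0.22 and -0.20.

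Of 26 sensors and degradation factors of the endoplasmic reticulum 6 were opposed (23.1%), all higher under tryptophan and lower under leucine restriction, 5 of them also with each table on its own. SEL1L, the membrane adaptor of the degradation ligase HRD1, stood at 2230.1, 2298, 1979, 2268 and 1902 in the tryptophan controls and 4792, 5847, 5148, 5078 and 5036 under 25% tryptophan, and at 5769.7, 8528, 8980 and 8674 in the BCAA controls and 4519.6, 4163, 4718, 4590.2 and 4841 under 25% leucine. The 2 restricted groups and 1 BCAA control, library 1, lay in the same region, with the other BCAA controls above and the tryptophan controls below. SEL1L had responses of 1.28 (adjusted p = 1.29e-09) and -0.79 (adjusted p = 3.15e-05). CREB3L2, OS9 and EDEM2 had 0.70, 0.41 and 0.34 for tryptophan and -1.25, -0.76 and -0.63 for leucine.

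Other programmes moved one way under both restrictions. Of 24 chaperones and folding enzymes of the endoplasmic reticulum 12 fell under both, against 2.46% of all tested genes, and 3 were opposed (12.5%). HSPA5, which encodes BiP, stood at 7393, 7803, 7321, 7818 and 7551 in the tryptophan controls, 3846, 3804, 3785, 3581 and 3927 under 25% tryptophan, 52165, 48233, 50184 and 51619 in the BCAA controls and 3849.9, 4726, 4266, 4567 and 4074 under 25% leucine. It fell in both comparisons, with a leucine response of -3.56, to levels close to each other, from BCAA controls several times above the tryptophan controls. HYOU1, a chaperone of the same compartment, was opposed, since it rose by 0.17 under tryptophan restriction (adjusted p = 0.0384) and had -2.26 (SE 0.07, adjusted p = 7.72e-16) under leucine restriction. DNAJB9 and SIL1, co-chaperones of BiP, were opposed too (0.55 and 0.36, -1.17 and -0.83).

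Of 22 cholesterol synthesis genes 15 fell under both restrictions, against 2.46% of all tested genes, and 1 was opposed (4.55%). HMGCS1 had -0.78 and -0.96, a difference of 0.18 (SE 0.15, adjusted p = 0.351). TXNIP, which restrains glucose uptake, rose under both, from 2937 ± 250 to 5838 ± 209 and from 293 ± 36.8 to 5319 ± 313 (SD, n = 5, 5, 4 and 5). The restricted groups stood near each other and the tryptophan controls about 10 times above the BCAA controls, so the 2 responses, 0.99 and 4.18, differed by -3.19 (SE 0.11, adjusted p = 3.24e-14). Its relative ARRDC4 rose in both as well (1.34 and 2.02). None of 78 ribosomal protein genes, 17 hosts of small nucleolar RNA or 13 mitochondrially encoded mRNAs was opposed in the joint fit, against 7.47% of all tested genes. At that share such a count says little about the 2 shorter lists. With equal totals 3 ribosomal protein genes were opposed, and without BCAA control 1 there was 1. Scaling by trimmed means of M values gave 1 opposed host gene.

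**Figure D3:**
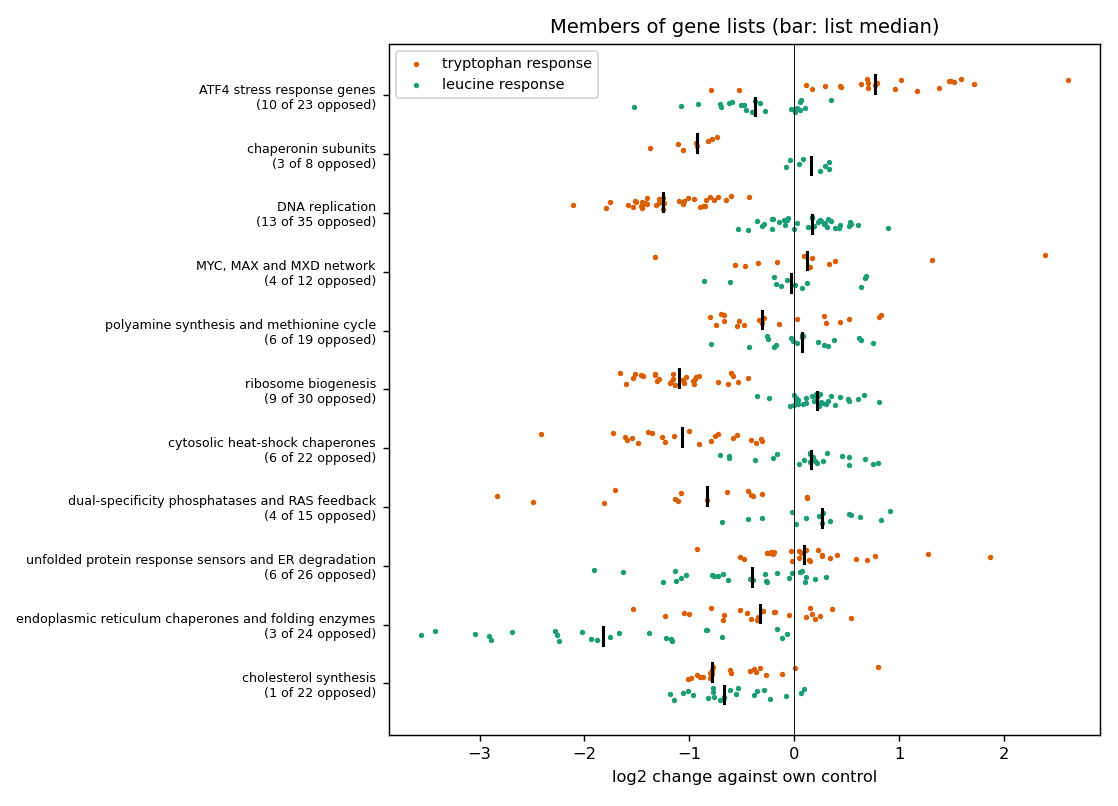
Log2 responses of every tested member of 11 gene lists to tryptophan restriction (orange) and leucine restriction (green), each against its own control, with a bar at the list median. For DNA replication, ribosome biogenesis and the chaperonin all orange points lie below 0 and the green medians lie at 0.17 to 0.22, for ATF4 genes the orange median lies at 0.77 and the green at -0.37, and for cholesterol synthesis both medians are below 0.

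Because each response is a difference of 2 groups, the difference of responses equals the restricted difference (25% tryptophan minus 25% leucine) minus the control difference (tryptophan control minus BCAA control). These 2 parts were set out with the median gene at 0 as a description, since the tables were normalised separately. In the 438 genes higher under tryptophan and lower under leucine restriction the median control difference was -1.05 and the median restricted difference 0.31. In the 755 genes of the other class they were 0.93 and -0.19. The control difference was the larger of the 2 in 372 of 438 genes (84.9%) and in 672 of 755 (89.0%), against 67.8% of all tested genes. Opposed genes therefore differed mainly between the 2 control groups, and less between the 2 restricted groups.

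The order of the 4 groups restates the same means and adds no separate support. By its definition the first class can have only the tryptophan control or 25% leucine lowest, and only the BCAA control or 25% tryptophan highest. In the second class these roles are reversed, so each rank lies between 2 groups, not 4. In the first class the tryptophan control was the lowest of the 4 groups in 368 genes (84.0%) and the BCAA control the highest in 355 (81.1%). In the second class the tryptophan control was the highest in 687 genes (91.0%) and the BCAA control the lowest in 604 (80.0%). TRIB3 had a control difference of -3.16 and a restricted difference of 0.02, and for MCM4 the values were 2.10 and 0.07. Whether the restriction or the state of its control sets such a response cannot be told apart in a design in which each restriction has its own control. The same library carried in 2 of the branched-chain tables differed with an SD of 0.0421 to 0.0480 log2 units over genes, once the median difference was taken out. A scaling factor common to all genes of a library is thereby removed and does not enter this SD. The tryptophan and leucine tables share no library, so the value does not extend to them.

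**Figure D4:**
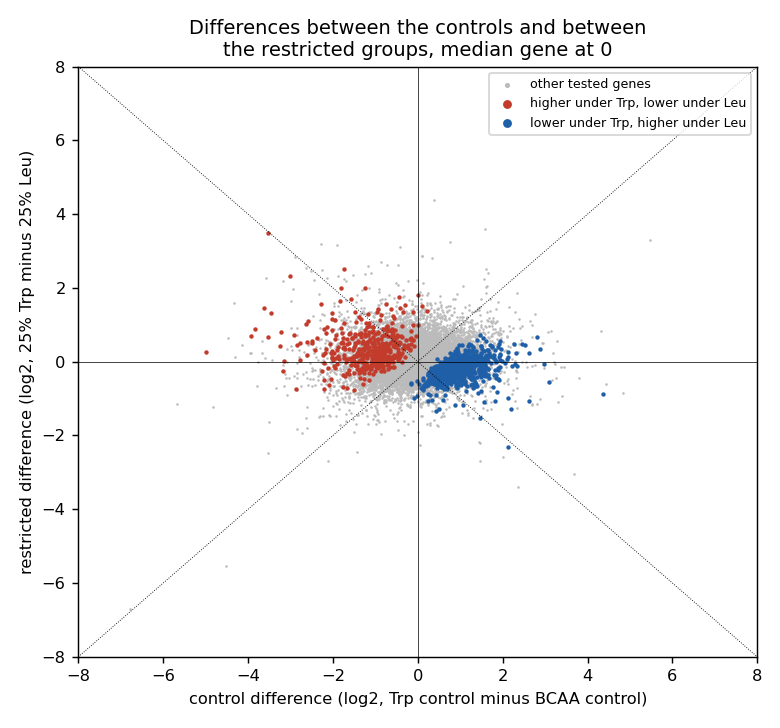
Each point is a tested gene, placed by the log2 difference between the tryptophan and BCAA controls (horizontal) and between 25% tryptophan and 25% leucine (vertical), with the median gene at 0 on both axes; dotted lines mark equal size. The red and blue opposed genes spread along the horizontal axis, around medians of -1.05 and 0.93, and stay near 0 on the vertical one, around 0.31 and -0.19.

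A minority of opposed genes differed more between the restricted groups than between the controls. For 83 opposed genes (0.519% of those tested) the restricted difference was the larger and no library of one restricted group overlapped the other. For that overlap the median difference between the restricted groups, 0.131 log2 units, was first taken out of the 25% tryptophan values. The share of all tested genes that meet the same conditions is not given here. In these genes no restricted library overlapped a control library in either table as well. Among those with a symbol and a mean of at least 100 in a restricted group, the 4 of each class with the largest restricted difference were chosen after the values were seen. They were ACSL6, an enzyme that activates fatty acids, the connexin gene GJD3, EGR1 and TCTA on one side, and HES1, RBM15, the zinc carrier SLC39A10 and HSP90AA1 on the other. ACSL6 stood at 79.8, 59.8, 53.7, 58.4 and 62.2 in the tryptophan controls and 97.0, 98.7, 115, 186 and 127 under 25% tryptophan, and at 77.3, 68.1, 80.9 and 90.6 in the BCAA controls and 37.7, 23.9, 41.6, 27.8 and 33.2 under 25% leucine. The 2 controls lay close together, the 25% tryptophan libraries above and the 25% leucine libraries below. Its control difference was -0.45 and its restricted difference 1.75.

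SLC39A10 showed the reverse, with 435 ± 56.0 falling to 255 ± 27.9 and 286 ± 66.5 rising to 570.1 ± 71.9 (SD, n = 5, 5, 4 and 5), a control difference of 0.51 and a restricted difference of -1.29. RBM15, a factor of RNA methylation, had 0.43 and -1.33. Its leucine response of 0.40 was not called without BCAA control 1 (adjusted p = 0.0653), which stood at 793 against 1133 to 1169 in the other 3. GJD3 lost its leucine call with the table on its own (adjusted p = 0.0755).

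The opposed genes were then followed in the histidine, methionine and phenylalanine tables, which share no library with the 4 groups. Under phenylalanine restriction, of 436 tested genes of the first class 10 rose (2.29%) and 92 fell (21.1%), against 4.11% and 6.09% of all 17021 genes, and of 754 of the second class 74 rose (9.81%) and 24 fell (3.18%). Under histidine restriction 125 of 435 rose (28.7%) and 56 fell (12.9%) in the first class, and 161 of 755 rose (21.3%) and 100 fell (13.2%) in the second, against 15.6% and 12.3% of all genes. Under methionine restriction 154 and 143 of 435, and 266 and 232 of 755, rose and fell, against 27.8% and 25.4%. Single genes varied. TRIB3 rose under methionine (2.21) and histidine restriction (1.06), HSPA8 fell under both (-1.04 and -1.35), and WARS1 fell under phenylalanine restriction (-0.65).

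Isoleucine and valine restriction share the 4 BCAA controls with leucine, so their values are only set beside it. TRIB3 averaged 13767 normalised counts under isoleucine and 20614 under valine restriction, HSPA8 10925 and 15594, and HES1 49.4 and 230.4.

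Across the 12 groups of the series the tryptophan control stood apart in both classes. The mean log2 level over the 432 genes of the first class tested in all tables, with the median gene at 0, was -0.81 in the tryptophan control (libraries -0.88 to -0.77), while the other 11 groups ranged from -0.29 in 25% leucine to 0.39 in the BCAA control. The 25% tryptophan group stood at 0.08. Over the 752 genes of the second class the tryptophan control stood at 2.24, 25% leucine at 1.80, and the other 10 groups at 1.32 to 1.60, the BCAA control lowest. The other 4 control groups ranged from -0.05 to 0.39 in the first class. As the genes were chosen on 4 of these groups, these levels describe the choice and are no test.

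**Figure D5:**
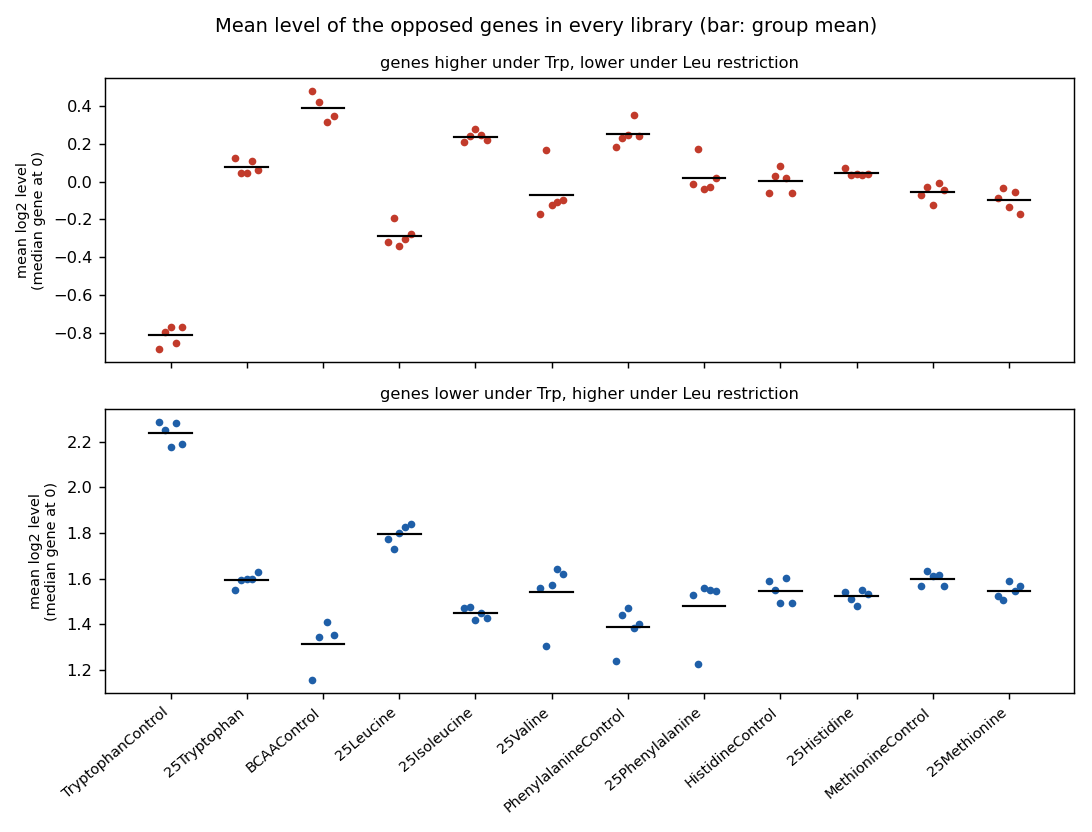
Mean log2 level (median gene at 0, tables normalised separately) of 432 opposed genes higher under tryptophan and lower under leucine restriction (top) and 752 of the other class (bottom), for each of the 59 libraries in 12 groups, with a bar at the group mean. The tryptophan controls lie below all other libraries in the top panel and above them in the bottom one.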

How the data were processed

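The authors deposited 1 table of normalised counts (a signal at or above 0) for each amino acid. Named in the submitters' processing notes are kallisto 0.50.1, FastQC 0.11.9 and DESeq2 1.44.0, with GRCh38 and no settings. Libraries came from total RNA with strand-specific kits, per the labels' protocols. Each table was scaled on its own. At best 80.4%, and in BCAA control 1 48.9%, of low values were whole multiples of a step within 0.1, so whole reads were not recovered and no count model was fitted.

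Genes were tested in R 4.3.3 with limma 3.58.1 (lmFit, eBayes with an intensity trend, two-sided) on log2(normalised count + 1), 4 groups in 1 fit, with Benjamini-Hochberg adjustment over 15980 genes and a threshold of 0.05. The tables were read with data.table (version 1.17.8). Other tables were fitted separately. The scripts were tested on simulated data. Lists are described by counts and medians, with no set test. Replicate numbers did not pair the libraries, so no block was used. Mean ± SD are given over libraries. Gene positions and promoters are from RefSeq, GRCh38.p14, and all 71 named genes matched.

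Members, the 43 lists and tests were chosen with earlier results of these data known. Named were the 12 opposed genes of each class with the largest difference, separated in both tables and with a group mean of at least 100, the 3 members with the smallest adjusted p in the 8 lists with the largest opposed share, and a set of fixed genes. Other list members, JUN and the 8 genes that differ between the restricted groups were chosen after their values were seen. Alternatives were pseudocounts of 0.25 and 5, a mean of at least 100 or no filter, scaling to equal totals or by trimmed means of M values, library weights, the replicate block, each table on its own, each library left out and stricter call rules. Added after seeing the data were 1 weight per group, omission of BCAA control 1 with 25% leucine 2, and opposition in both fits.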

Additional observations from a re-analysis of the deposited data

Results flagged for a closer look

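In these checks of single libraries chance alone flags about 1 in 20 groups, and 284 gene-by-group sets of the 71 named genes were examined, of which 11 were flagged. Each value below is the gap of the outermost library to its nearest neighbour as a share of the group's range. In the BCAA control, library 1 was far above the rest for DDIT3 (0.928) and far below for RBM15 (0.920), and library 4 was low for SESN2 (0.907). In 25% leucine, library 2 was high for ODC1 (0.722), CCT3 (0.758) and SLC3A2 (0.757), and library 3 was high for TCTA (0.767). In 25% tryptophan, library 5 was high for L3MBTL2-AS1 (0.786) and library 2 low for WDR43 (0.747). In the tryptophan control, library 5 was low for JAML (0.724) and library 1 high for ARRDC4 (0.769). The mean level of the opposed genes higher under tryptophan restriction also had an outlying library in 25% leucine (0.729), library 2, the highest of the 5. As a difference between 2 restrictions under 1 kind of contrast, the interaction called 6423 genes, of which 1193 had called responses of opposite sign.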

How the results depend on the processing

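The 1193 opposed genes were chosen by calls of the difference of responses in the same libraries, so a kept sign is no test. No difference of responses among them changed sign under any setting. The tryptophan response of 27 of them did with equal totals, which moved the median gene by 0.245 for tryptophan and 0.0525 for leucine. That scaling gave 1207 opposed genes and raised the share of higher genes among called tryptophan responses from 44.7% to 70.7%. For the difference of responses equal totals moved the calls from 2844 higher and 3579 lower to 4166 and 2468, while each table fitted on its own gave 2851 and 3560. The leucine and opposed counts moved with the estimate of the spread. With each table fitted on its own, the leucine calls fell from 3046 to 1281, the opposed genes to 599 (256 and 343 by class) and the opposed entries in the lists from 124 to 78. With 1 weight per group, added after seeing the data, they were 1486 and 691 (241 and 450). Both fits called 563 opposed genes (233 and 330), a threshold of 0.01 left 537, a response of at least 0.5 both ways 426, and complete separation of libraries 693. Leaving out 1 library gave 950 to 1301 opposed genes (348 to 497 and 602 to 882 by class), 5998 to 7053 calls of the difference (2637 to 3056 higher, 3361 to 3997 lower), 6689 to 8109 for tryptophan, 2303 to 3476 for leucine, 106 to 150 opposed list entries, and median control differences of -1.11 to -0.98 and 0.87 to 0.95. Without BCAA control 1 and 25% leucine 2 there were 1410 (1011 shared). The replicate numbers did not pair the libraries (correlations of -0.12 to 0.039 for tryptophan, none of 5 best with its own number, and -0.15 to 0.078 for leucine, 2 of 4), and the replicate block gave 991 opposed genes, 883 shared. SLC7A11, SESN2, CCT3, CCT5, GJD3, RBM15 and SLC3A2 lost their leucine call with the table on its own. The depth of the libraries is unknown beyond these totals, so no counting error is given.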
